A study of Homo sapiens with 6 samples.

Results

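The genes described here are 10 transcription factors that build and maintain squamous epithelium, the stratified lining of the oesophagus: TP63, SOX2, GRHL1, GRHL2, GRHL3, BNC1, OVOL1, OVOL2, PAX9 and TFAP2A. They were selected by name from the 58735 genes of the deposited count table, each matched 1 row, and all 10 had enough counts to be among the 15294 genes tested. RNA was sequenced from KYSE410, a cell line from an oesophageal squamous cell carcinoma, grown as 3 samples with ADAR1 knocked down by siRNA (siADAR1) and 3 control samples. ADAR1 edits double-stranded RNA by deaminating adenosine to inosine. The control titles read NC and the genotype label reads wild type, the treatment label of both groups is "No", and no label says whether the controls received a non-targeting siRNA. Delivery of siRNA and loss of ADAR1 therefore cannot be told apart, and the labels do not say whether the samples of a group came from separate cultures, and the p-values reflect the spread among these libraries alone, which may be technical.

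As background, p63, the product of TP63, is the p53-family factor that stratified epithelia need to form, and SOX2 is a stem cell and foregut factor that lies with TP63 on the long arm of chromosome 3, a region often gained in squamous carcinoma. The grainyhead-like factors GRHL1, GRHL2 and GRHL3 activate genes of cell junctions and of the epidermal barrier. BNC1 (basonuclin 1) is a zinc finger protein of basal keratinocytes, OVOL1 and OVOL2 are zinc finger repressors that hold epithelial cells in the epithelial state, PAX9 is a paired-box factor of the foregut and oral epithelium, and TFAP2A (AP-2 alpha) activates keratinocyte and neural crest genes. A gene count sums all transcripts of a gene, so the p63 forms made from different start sites, of which the annotation holds 14 transcripts with 8 distinct starts, cannot be told apart here.

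The 6 libraries held 15175619 to 16903792 counts in siADAR1 and 15497788 to 17329443 in control. ADAR was at 92.8, 95.8 and 77.6 CPM (read counts relative to library sizes scaled by the TMM method) in the siADAR1 libraries, against 456, 432 and 444 CPM in control, a log2 fold change of -2.32 ± 0.09 (SE; edgeR quasi-likelihood test, adjusted p = 1.06e-08). The groups lay apart on principal component 1 (71.4% of the variance), and siADAR1 replicate 1 lay farther out (-60.5) than replicates 2 and 3 (-41.0 and -40.9). Control replicate 1 lay apart on the second component, at 36.1 against -19.6 and -13.3. On that component siADAR1 replicate 1 was at 14.96, against -8.07 and -10.05 for siADAR1 replicates 2 and 3. Values without both libraries numbered 1 are therefore given below for several genes, and wherever a call changed. Of 15 markers of squamous identity, 13 had enough counts to be tested, and their summed level was 1549 to 1599 CPM in siADAR1 and 1703 to 1796 CPM in control. KRT14, a keratin of basal squamous cells, was almost absent, with 3 counts over the siADAR1 libraries and 1 over the controls. Of 13 columnar and glandular markers 6 had no count, among them CDX2 and KRT20, and GATA6 made up most of the list's summed 182 to 283 CPM in siADAR1 and 71.2 to 76.3 CPM in control. Of 13 fibroblast, endothelial and leukocyte markers 3 were tested, DCN and CD3E had no count, and the summed level was 73.9 to 86.1 CPM in siADAR1 and 42.2 to 62.3 CPM in control.

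Most of the squamous factors were higher after ADAR1 knockdown. With p adjusted across every tested gene and a threshold of 0.05, 7 of the 10 were higher in siADAR1 (GRHL3, GRHL1, OVOL2, BNC1, OVOL1, TP63 and TFAP2A), PAX9 was lower, and GRHL2 and SOX2 were not called. Over all tested genes, 26% were called higher and 25% lower. The median log2 fold change of the 10 was 0.88, beside 0.00 over all tested genes. The libraries of the groups did not overlap for 9 of the 10 genes, all but GRHL2, as against 60.3% of all tested genes. Of the 10, 4 were called at least 2-fold higher, as were 1506 of the 15294.

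**Figure D1:**
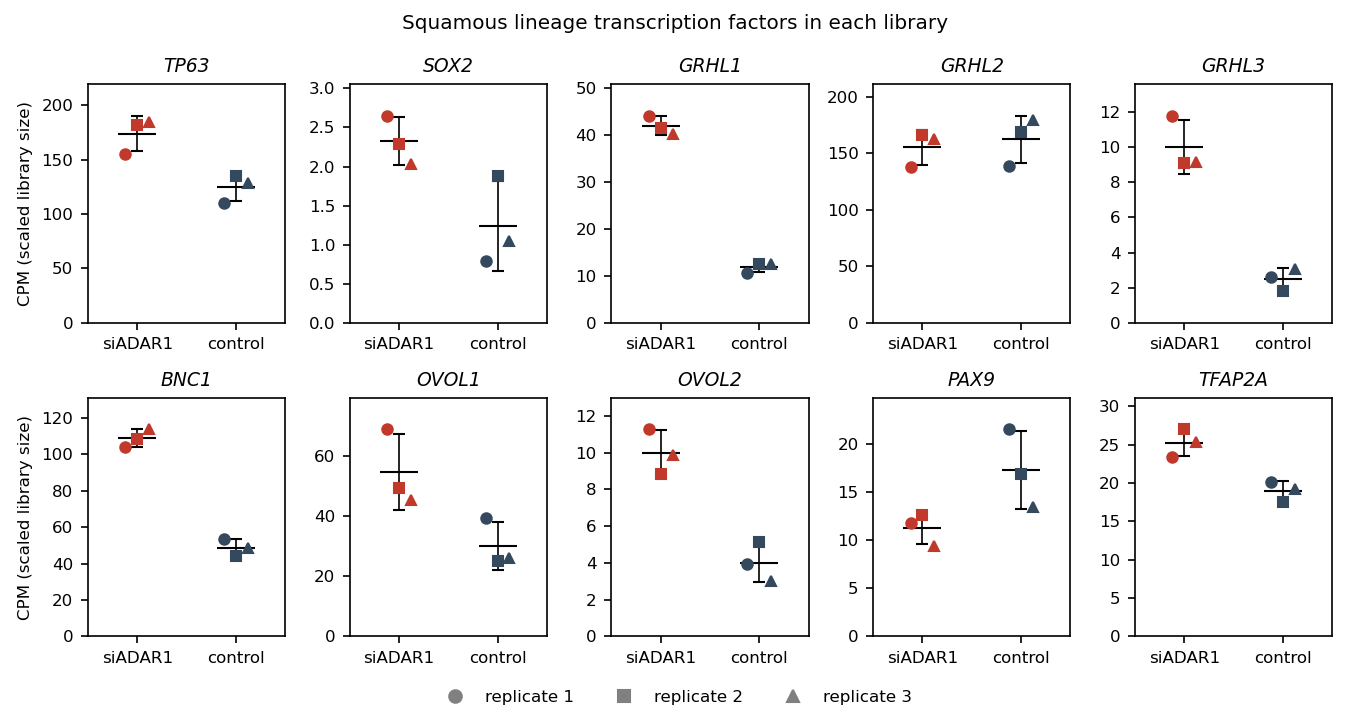
CPM on the scaled library sizes for the 10 genes in each of 3 siADAR1 and 3 control libraries, with a separate vertical axis from 0 for each gene. Symbols mark the replicate number and bars the mean ± SD; all siADAR1 points lie above all control points for 8 genes, below them for PAX9, and among them for GRHL2.

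The grainyhead-like genes split into 2 that rose and 1 that did not pass the test. GRHL3 (ENSG00000158055, chromosome 1, 24319322 to 24364482, plus strand), which in skin directs barrier formation and wound closure, had 11.8, 9.10 and 9.15 CPM in siADAR1 libraries, against 2.60, 1.82 and 3.09 CPM in control. Every siADAR1 value was at least 2-fold above every control value, from 209, 143 and 144 reads in siADAR1 and 43, 27 and 47 in control. GRHL3 rose by 2.00 ± 0.23 (SE) on the log2 scale (edgeR adjusted p = 1.52e-05), above 97.6% of tested genes. GRHL1 (ENSG00000134317, chromosome 2, 9951693 to 10002277, plus strand), an activator of desmosomal genes, had 44.2, 41.6 and 40.2 CPM in siADAR1 libraries, against 10.6, 12.6 and 12.5 CPM in control. The libraries of each group lay close together, and GRHL1 rose by 1.82 ± 0.12 (edgeR adjusted p = 2.89e-07), a 3.54-fold difference. GRHL2 (ENSG00000083307, chromosome 8, 101492432 to 101669726, plus strand), which maintains E-cadherin and tight junction genes in many epithelia, had 137.5, 166 and 163 CPM in siADAR1 libraries, against 139, 169 and 179 CPM in control. Replicate 1 was the lowest library of GRHL2 in both groups, the ranges overlapped, and the log2 fold change was -0.06 ± 0.11 (edgeR adjusted p = 0.657). Its sign was not stable, with values of -0.18 to 0.05 over the alternative settings.

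Because GRHL2 was by far the most abundant of the 3, the make-up of the family moved while its sum moved little. On deposited FPKM, which divide by gene length and so allow genes to be compared, GRHL1 made up 17.8%, 14.99% and 14.8% of the summed family level in siADAR1 libraries, against 5.35%, 5.29% and 4.93% in control. GRHL3 made up 7.66 ± 1.66% in siADAR1 and 2.22 ± 0.59% in control (SD, n = 3 each). The share of GRHL2 was 76.5 ± 3.34% in siADAR1 and 92.6 ± 0.59% in control (SD, n = 3 each). None of these shares overlapped between groups, and the exact permutation test gave p = 0.10 (two-sided), the smallest that 3 against 3 libraries allow. The family sum was 33.0 ± 1.91 FPKM in siADAR1 and 28.6 ± 3.61 FPKM in control (exact permutation p = 0.20).

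**Figure D2:**
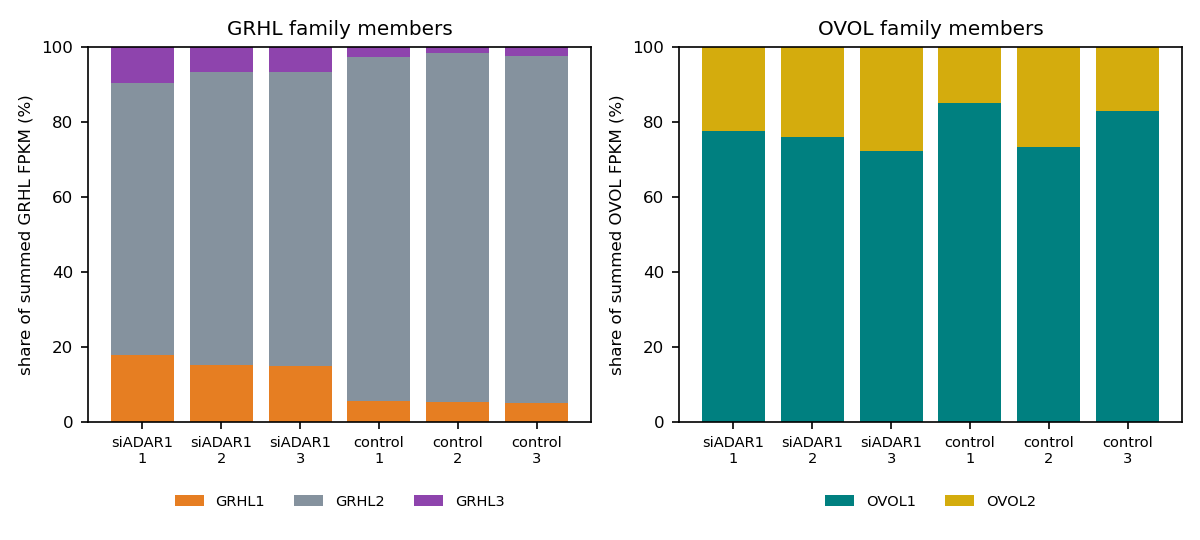
Share of the summed FPKM of the GRHL family (left) and the OVOL family (right) taken by each gene in each library, in percent. GRHL2 takes 72.6 to 78.5% in siADAR1 libraries and 92.0 to 93.2% in control, while the OVOL1 share overlaps between groups.

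BNC1 and TP63, factors of the basal layer, both rose, BNC1 by more. BNC1 (ENSG00000169594, chromosome 15, 83255903 to 83284714, minus strand), which in keratinocytes is tied to the capacity to divide, had 104, 109 and 114 CPM in siADAR1 libraries, against 53.7, 44.1 and 48.6 CPM in control. The siADAR1 libraries lay close together and far above every control, and BNC1 rose by 1.16 ± 0.10 (SE; edgeR adjusted p = 1.52e-06). TP63 (ENSG00000073282, chromosome 3, 189631416 to 189897279, plus strand) had 155, 182 and 185 CPM in siADAR1 libraries, against 110, 135 and 128 CPM in control. Replicate 1 was the lowest library in both groups, the groups did not overlap, and TP63 rose by 0.48 ± 0.10, or 1.40-fold (edgeR adjusted p = 1.47e-03). With both libraries numbered 1 left out, the log2 fold changes were 1.26 for BNC1 and 0.48 for TP63.

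The promoters of the 3 genes with the largest rises among those matched in RefSeq (GRCh38.p14) are shown because these genes moved in the same direction. Promoter windows of 7 of the 10 genes were searched, 11 windows in all, and GRHL2, OVOL1 and OVOL2 were not among them. Each window runs from 250 bases before to 50 after an annotated start. Capitals mark the AP-2 motif GCCNNNGGC, searched on both strands. GRHL3 has its second start here, the one of its windows with a motif (chr1:24322790-24323089, plus strand), with a match starting 50 bases before the start. BNC1 has its first (chr15:83284615-83284914, minus strand), with a match starting 154 bases before the start. GRHL1 has its only one (chr2:9951443-9951742, plus strand), with no match to any motif searched.
GRHL3: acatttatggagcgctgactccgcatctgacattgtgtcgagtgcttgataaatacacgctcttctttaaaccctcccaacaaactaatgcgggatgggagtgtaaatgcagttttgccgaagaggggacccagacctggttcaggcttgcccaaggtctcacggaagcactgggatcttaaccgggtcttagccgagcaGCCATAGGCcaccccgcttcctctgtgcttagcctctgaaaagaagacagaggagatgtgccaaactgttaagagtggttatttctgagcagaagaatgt
GRHL1: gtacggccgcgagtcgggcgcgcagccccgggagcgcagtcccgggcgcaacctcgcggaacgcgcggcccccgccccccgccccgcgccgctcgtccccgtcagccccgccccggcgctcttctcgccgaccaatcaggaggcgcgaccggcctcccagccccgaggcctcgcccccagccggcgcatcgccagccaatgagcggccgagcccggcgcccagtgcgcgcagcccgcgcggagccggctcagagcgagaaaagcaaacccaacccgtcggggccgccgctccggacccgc
BNC1: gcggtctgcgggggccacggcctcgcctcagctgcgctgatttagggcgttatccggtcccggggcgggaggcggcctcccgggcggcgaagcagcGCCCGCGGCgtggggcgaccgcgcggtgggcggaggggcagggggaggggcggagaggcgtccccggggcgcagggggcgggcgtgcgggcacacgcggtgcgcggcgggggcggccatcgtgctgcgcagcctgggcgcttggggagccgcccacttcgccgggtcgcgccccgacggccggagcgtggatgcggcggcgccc

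The windows differed in base composition, with 79.7% G and C in GRHL1, 81.7% in BNC1 and 50% in GRHL3, beside a median of 58.7% over all 35116 promoter windows of the table. The AP-2 motif was in 4 of the 11 windows, of GRHL3, SOX2 and BNC1 (in both BNC1 windows), and in 23.2% of all windows. None of the 11 held the GRHL motif AACCGGTT (0.134% of all windows), the OVOL motif CCGTTA (3.07%), the SOX motif ACAATGG (3.16%), ACATGTC, a form of the p53-family half-site (1.59%), GGACTTTCC, a form of the NF-kB site (0.37%), or the AP-1 motif TGACTCA (4.95%). These are matches of letters in short windows and not measured binding sites.

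The OVOL repressors both rose. OVOL1 (ENSG00000172818, chromosome 11, 65787022 to 65797219, plus strand), which takes keratinocytes out of the cell cycle as they differentiate, had 69.0, 49.5 and 45.4 CPM in siADAR1 libraries, against 39.4, 25.0 and 26.1 CPM in control. Replicate 1 was the highest library in both groups, and its control value came near the lowest siADAR1 value without reaching it. OVOL1 rose by 0.86 ± 0.20 (SE; edgeR adjusted p = 5.70e-03), and by 0.89 with both libraries numbered 1 left out. OVOL2 (ENSG00000125850, chromosome 20, 17956979 to 18059188, minus strand), which restrains the mesenchymal programme, had 11.3, 8.85 and 9.85 CPM in siADAR1 libraries, against 3.93, 5.12 and 3.02 CPM in control. The groups were well apart, at 139 to 200 reads in siADAR1 and 46 to 76 in control, and OVOL2 rose by 1.31 ± 0.22 (edgeR adjusted p = 2.45e-04). In FPKM OVOL1 made up 75.3 ± 2.73% of the pair's sum in siADAR1 and 80.5 ± 6.21% in control (SD, n = 3 each), shares that overlapped (exact permutation p = 0.30). The sum of the pair was 18.6 ± 3.73 FPKM in siADAR1 and 9.59 ± 2.03 FPKM in control (exact permutation p = 0.10, the smallest possible).

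The other 3 factors showed the smaller or less certain differences. TFAP2A (ENSG00000137203, chromosome 6, 10393186 to 10419659, minus strand) had 23.5, 27.0 and 25.4 CPM in siADAR1 libraries, against 20.2, 17.6 and 19.2 CPM in control. It rose by 0.41 ± 0.12 (SE; edgeR adjusted p = 0.0135), or 1.33-fold, and the call was lost without siADAR1 replicate 2 (0.36, adjusted p = 0.067) and without control replicate 2 (0.36, adjusted p = 0.0613). PAX9 (ENSG00000198807, chromosome 14, 36657568 to 36679715, plus strand) was the only 1 of the 10 called lower, with 11.8, 12.7 and 9.41 CPM in siADAR1 libraries, against 21.6, 16.9 and 13.5 CPM in control. The lowest control library was close to the highest siADAR1 library. The log2 fold change of PAX9 was -0.62 ± 0.19 (edgeR adjusted p = 0.0135) and -0.46 (adjusted p = 0.0208) with both libraries numbered 1 left out, and the call was lost without siADAR1 replicate 3 (-0.49, adjusted p = 0.0675) and without control replicate 1 (-0.44, adjusted p = 0.052). SOX2 (ENSG00000181449, chromosome 3, 181711924 to 181714436, plus strand) had few reads, 47, 36 and 32 in siADAR1 libraries and 13, 28 and 16 in control. In CPM SOX2 was at 2.65, 2.29 and 2.03 in siADAR1, against 0.785, 1.88 and 1.05 in control, so the groups did not overlap but control replicate 2 lay near them. Its log2 fold change of 0.91 ± 0.38 did not pass (edgeR adjusted p = 0.0576). It passed without control replicate 2, at 1.34 (adjusted p = 0.017), and was 0.56 (adjusted p = 0.274) with both libraries numbered 1 left out.

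**Figure D3:**
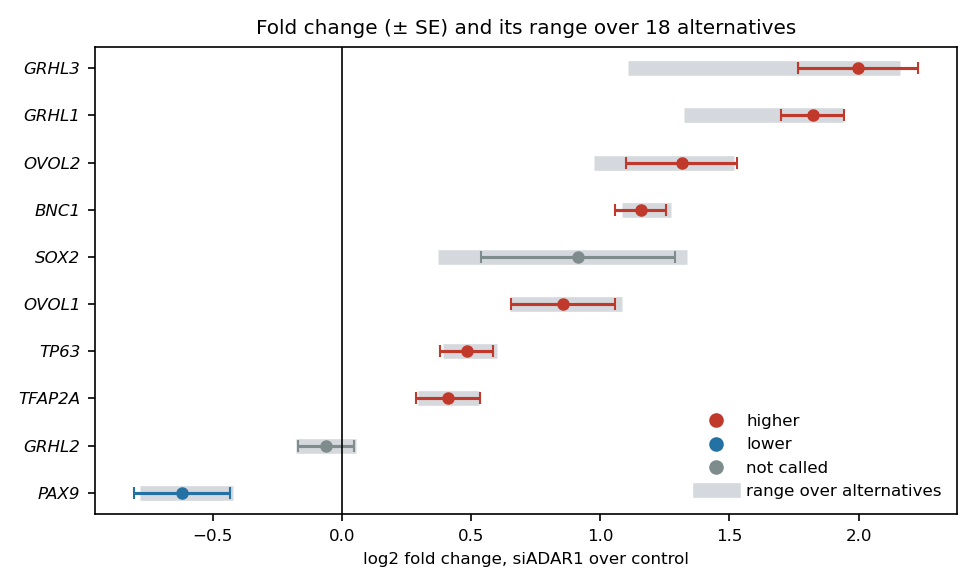
Log2 fold change of siADAR1 over control for each gene with its SE (points and error bars), coloured by call at an adjusted p below 0.05, and the range over the 18 alternative settings (grey). GRHL3 and GRHL1 lie at 2.00 and 1.82, PAX9 at -0.62, and the grey range of GRHL2 crosses 0.

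Ordered by level per length, GRHL2 (25.3 ± 2.51 FPKM), TP63 (23.0 ± 2.16) and BNC1 (22.4 ± 0.99) stood at the top in siADAR1 with overlapping ranges (SD, n = 3 each). In control the same genes were apart, with GRHL2 at 26.5 ± 3.45, TP63 at 16.5 ± 1.70 and BNC1 at 10.1 ± 0.98 FPKM (SD, n = 3 each), and BNC1 overlapped OVOL1 (7.76 ± 2.05 FPKM). Lower down in siADAR1 came OVOL1 at 14.02 ± 3.26 FPKM, GRHL1 at 5.21 ± 0.26 and OVOL2 at 4.54 ± 0.55, whose ranges overlapped with each other only for GRHL1 and OVOL2. TFAP2A (3.02 ± 0.21 FPKM) and GRHL3 (2.51 ± 0.39) overlapped, and PAX9 (1.85 ± 0.28) and SOX2 (0.91 ± 0.12) were last and separate in siADAR1. In control, PAX9 (2.84 ± 0.66 FPKM), TFAP2A (2.27 ± 0.16), OVOL2 (1.83 ± 0.48) and GRHL1 (1.48 ± 0.14) each overlapped the next, and GRHL3 (0.63 ± 0.16) overlapped SOX2 (0.49 ± 0.23). PAX9 thus had rank 9 of 10 in siADAR1 and rank 5 in control, and GRHL1 had rank 5 in siADAR1 and rank 8 in control.

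Genes that overlap these loci were examined because no strand-marking step is given in the library protocol, so reads of overlapping exons may be shared. SOX2-OT, the long RNA that runs across SOX2 on the same strand, shares no exon base with it in the annotation and had 2, 1 and 2 reads in siADAR1 libraries, against 0, 1 and 0 in control. The antisense genes TFAP2A-AS1 and TFAP2A-AS2 share 438 and 941 of the 8274 exon bases of TFAP2A. They had 42 and 65 reads over all 6 libraries, too few to be tested. TFAP2A-AS1 had 7, 11 and 9 reads in siADAR1 libraries, against 6, 6 and 3 in control. TFAP2A-AS2 had 25, 8 and 17 reads in siADAR1 libraries, against 5, 3 and 7 in control. Both thus had more reads in siADAR1, the direction of TFAP2A. OVOL1-AS1 shares no exon base with OVOL1 and was not called, at 0.46 ± 0.44 (SE; edgeR adjusted p = 0.397), while AP001266.1 shares 1044 of the 3849 exon bases of OVOL1 and had no read. SNX5, a sorting nexin gene whose 59 shared exon bases lie on the same strand as OVOL2, had 165 ± 7.42 CPM in siADAR1 and 177 ± 13.3 CPM in control (SD, n = 3 each), and was not called (log2 fold change -0.10 ± 0.09, edgeR adjusted p = 0.344), but was called lower with both libraries numbered 1 left out (-0.19, adjusted p = 0.0141). MGME1, a mitochondrial nuclease gene inside the OVOL2 locus with no shared exon base, fell by 0.66 ± 0.11 on the log2 scale (edgeR adjusted p = 2.91e-04), and the small nucleolar RNA gene SNORD17 there had a log2 fold change of -1.40 ± 0.31 (adjusted p = 2.02e-03), both opposite to OVOL2. SLC25A21 shares 481 of the 6035 exon bases of PAX9 and was not called (0.02 ± 0.39, edgeR adjusted p = 0.978). STPG1, which overlaps the end of GRHL3 on the other strand with no shared exon base, rose by 0.53 ± 0.17 (edgeR adjusted p = 0.0195). That call was lost without siADAR1 replicate 2 (0.47, adjusted p = 0.0767), siADAR1 replicate 3 (0.49, adjusted p = 0.069) or control replicate 1 (0.42, adjusted p = 0.0616). On filtered FPKM it was lost too, with FPKM plus 1 (0.27, limma adjusted p = 0.0871) and plus 0.1 (0.48, limma adjusted p = 0.0856). FPKM plus 1 with no filter gave 0.27 (limma adjusted p = 0.208). The remaining overlapping genes had few or no reads: MIR944 and AC078809.1 at TP63 had 0, AP001207.1, AP001207.2 and AP001207.3 at GRHL2 had 6, 7 and 12 over all libraries, AL138902.1 at GRHL3 had 20, AC103876.1 at BNC1 had 6, PTMAP3 at OVOL2 had 3 and AL079303.1 at PAX9 had 8. No annotated gene overlapped GRHL1. The part of shared reads in these values was not tested.

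Higher calls were common among transcription factors as a class. Of 1090 tested genes with a factor family in the deposited table, the 10 included, 498 (45.7%) were called higher and 148 (13.6%) lower, with a median log2 fold change of 0.36. The 7 higher and 1 lower among the 10 stand beside that share as well as beside the 26% of all genes. In the zinc finger family to which OVOL1 and OVOL2 belong, 264 of 479 tested genes were higher and 26 lower. In the HMG-box family of SOX2 the balance was the other way, with 4 of 36 higher and 14 lower. All 6 genes of the grainyhead and CP2 family were tested, 4 were higher and 0 lower, and the non-members that rose were UBP1, by 0.57 ± 0.08 (SE; edgeR adjusted p = 1.01e-04), and its relative TFCP2.

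Among 16 close relatives of the 10 factors, 7 were tested, of which 4 were higher and 1 lower, with a median of 0.29. Over all tested genes 26% were higher and 25% lower. The number of relatives higher was 2 without siADAR1 replicate 3 or without control replicate 1. TFAP2C, which encodes AP-2 gamma, rose by 0.60 ± 0.10 (SE; edgeR adjusted p = 2.42e-04), to 73.8 ± 1.87 CPM in siADAR1, against 48.7 ± 4.28 CPM in control (SD, n = 3 each). TP73, the p53-family relative of TP63, had 26 reads over the siADAR1 libraries and 60 over the controls and was called lower (-1.27 ± 0.45, edgeR adjusted p = 0.0292). That call was lost without siADAR1 replicate 1 or 2 or without control replicate 2 or 3, with log2 fold changes of -1.24, -1.02, -1.28 and -1.20. It was also lost in DESeq2 (adjusted p = 0.0589), with no filter on low counts (adjusted p = 0.0657), with both libraries numbered 1 left out (adjusted p = 0.0513) and on FPKM with no filter (adjusted p = 0.0751). SOX1, SOX3, SOX14, PAX1, TFAP2B and TFAP2D had no count in any library.

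Of 20 other regulators of squamous and epithelial identity, 18 were tested, 11 were higher and 2 lower, with a median log2 fold change of 0.47. Over all tested genes 26% were higher and 25% lower, and over all tested transcription factors 45.7% were higher and 13.6% lower. The number lower was 1 wherever TP73 lost its call in DESeq2 or without a library, and 4 with the replicate block. ZNF750, a factor of late epidermal differentiation, had 15.3, 11.5 and 13.2 CPM in siADAR1 libraries, against 0.967, 2.62 and 2.04 CPM in control, and rose by 2.84 ± 0.28 (SE; edgeR adjusted p = 3.97e-06). PRDM1, a repressor that acts in terminally differentiating keratinocytes, rose by 2.42 ± 0.21 and KLF4, a barrier factor, by 2.26 ± 0.15 (edgeR adjusted p = 1.51e-06 and 3.26e-07). NOTCH1, the receptor that promotes keratinocyte differentiation, was lower, at 36.1 ± 4.95 CPM in siADAR1 and 71.1 ± 8.68 CPM in control (SD, n = 3 each; edgeR adjusted p = 3.63e-05). With TP73, NOTCH1 made up the 2 lower calls.

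Genes reported elsewhere as targets of these factors were counted next. Of 22 genes reported as activated by p63, 20 were tested, 7 were higher and 5 lower, beside 26% and 25% of all tested genes, with a median of 0.07, or 0.18 when scaled by library totals, and BNC1 and ZNF750 were among the higher. The Notch ligand gene JAG2 (-0.73 ± 0.11, SE; edgeR adjusted p = 9.84e-05) and S100A2, a calcium-binding protein gene of basal cells (-0.90 ± 0.12, adjusted p = 7.15e-05), were lower. The number lower was 3 without control replicate 3. Of 18 genes reported as activated by grainyhead factors, 16 were tested. Beside 26% higher and 25% lower over all tested genes, 3 of the 16 were higher and 5 lower, with a median of -0.19. Scaled by library totals, 4 were higher and 3 lower and the median was -0.08, and 3 were lower without control replicate 3. The median was -0.12 without siADAR1 replicate 1 and -0.07 with both libraries numbered 1 left out. ESRP2, an epithelial splicing regulator (0.94 ± 0.13, edgeR adjusted p = 6.72e-05), and PPL, which encodes the envelope protein periplakin (0.90 ± 0.10, adjusted p = 8.48e-06), rose. ST14, which encodes the membrane protease matriptase (-0.84 ± 0.08, adjusted p = 4.87e-06), and CLDN4, a tight junction gene (-0.51 ± 0.08, adjusted p = 1.53e-04), fell. Of 10 genes reported as repressed by OVOL or grainyhead factors, 7 were higher and 0 lower, with a median of 0.53. On FPKM with a filter, 8 of these genes were tested and 4 were higher. Beside this list, 26% of all tested genes were higher and 25% lower. The list holds transcription factors, SNAI2 and ZEB1 among them, and of all tested transcription factors 45.7% were higher and 13.6% lower. SNAI2, which encodes the mesenchymal factor Slug, was at 574, 499 and 502 CPM in siADAR1 libraries, against 76.1, 96.9 and 86.4 CPM in control, a rise of 2.60 ± 0.10 (SE; edgeR adjusted p = 1.06e-08). ZEB1, another mesenchymal repressor gene, was at 4.84 ± 0.89 CPM in siADAR1 and 1.55 ± 0.19 CPM in control (SD, n = 3 each), and rose by 1.64 ± 0.27 (edgeR adjusted p = 2.55e-04). SNAI2, ZEB1, OVOL1 and OVOL2 were thus all higher in the same libraries.

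**Figure D4:**
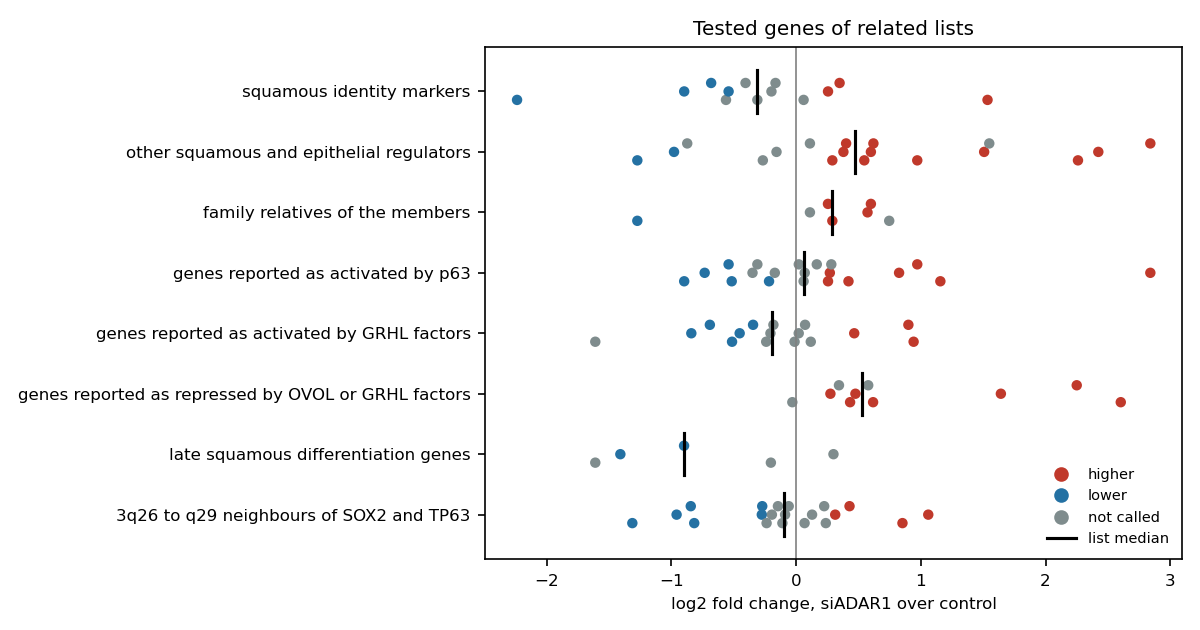
Log2 fold change of siADAR1 over control for each tested gene (points, coloured by call at an adjusted p below 0.05) in 8 related lists, with the list median as a black bar. The medians of the other regulators (0.47) and of genes reported as repressed by OVOL or GRHL factors (0.53) lie above 0, and the late differentiation genes are few.

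Of 13 tested markers of squamous identity, 3 were higher and 4 lower, shares near the 26% and 25% of all tested genes. Their median log2 fold change was -0.31, and -0.11 without siADAR1 replicate 1 and -0.12 without control replicate 3. DSG3, a desmosomal cadherin gene of basal cells, was at 69.8, 61.9 and 63.8 CPM in siADAR1 libraries, against 16.8, 23.8 and 26.9 CPM in control, and rose by 1.53 ± 0.15 (SE; edgeR adjusted p = 3.84e-06). KRT17, a keratin of stressed and cancerous squamous cells, rose by 0.35 ± 0.10 (adjusted p = 8.70e-03 in edgeR). KRT6A, a keratin of activated keratinocytes, was at 4.23, 7.83 and 4.77 CPM in siADAR1 libraries, against 29.5, 24.2 and 25.4 CPM in control, a log2 fold change of -2.24 ± 0.20 (edgeR adjusted p = 2.60e-06). Late differentiation genes were largely silent in both groups: of 19, 11 had no count, IVL, LOR and SPRR3 among them, 5 were tested, 0 were higher and 2 lower, with a median of -0.90. That median was -0.55 with no filter, -0.54 with a filter at 1 CPM and -0.53 with both libraries numbered 1 left out. On FPKM with a filter 3 of these genes were tested, with a median of -0.19 (FPKM plus 1) or -0.20 (plus 0.1). With no filter the FPKM median was -0.08. The number higher was 1 with library totals alone, with the replicate block, without siADAR1 replicate 3 or control replicate 1, and with both libraries numbered 1 left out. The number lower was 1 without siADAR1 replicate 3 or control replicate 2, and on FPKM. KRT13, a keratin of upper oesophageal layers, was at 2.70 ± 0.43 CPM in siADAR1 and 5.03 ± 0.72 CPM in control (SD, n = 3 each; edgeR adjusted p = 7.41e-03). FLG, the filaggrin gene, had 34 reads over the siADAR1 libraries and 86 over the controls (-1.41 ± 0.47, edgeR adjusted p = 0.0223). The FLG call was lost without siADAR1 replicate 1 (-1.27) or 3 (-1.23) or control replicate 2 (-0.95), and on FPKM with no filter (-0.12).

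Markers of other lineages moved with the same contrast and their part in these results was not tested. GATA6, a factor of endodermal and glandular epithelium, was at 275, 182 and 179 CPM in siADAR1 libraries, against 72.0, 67.6 and 67.3 CPM in control (log2 fold change 1.62 ± 0.15, SE; edgeR adjusted p = 1.05e-05), and was the only 1 of 3 tested columnar markers that was called. LUM, a matrix proteoglycan gene, rose by 0.73 ± 0.14 (edgeR adjusted p = 7.10e-04). COL1A1, a collagen gene, rose by 0.44 ± 0.17 (edgeR adjusted p = 0.041), a call lost without any library but control replicate 3, at 0.26 to 0.49, with both libraries numbered 1 left out (0.18, adjusted p = 0.245) and on FPKM. In these bulk samples of a cell line, more cells that express a gene and more of its RNA per cell cannot be told apart.

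SOX2 and TP63 share the end of chromosome 3 with 20 listed neighbours from bands 3q26 to q29, all tested. Of these 20, 4 were higher and 6 lower, beside 26% higher and 25% lower over all tested genes. Their median log2 fold change was -0.10 (0.02 with library totals alone), and 2 were higher without siADAR1 replicate 3. LPP, a focal adhesion gene near TP63, rose by 0.85 ± 0.11 (SE; edgeR adjusted p = 4.11e-05), and ATP11B, a lipid flippase gene near SOX2, by 0.43 ± 0.11 (adjusted p = 4.92e-03). ACTL6A, a chromatin remodelling subunit gene often gained with TP63, was lower (-0.96 ± 0.09, edgeR adjusted p = 3.78e-06), as was EIF4G1, a translation initiation factor gene (-0.82 ± 0.08, adjusted p = 3.62e-06).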

How the data were processed

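Polyadenylated RNA of KYSE410 cells from 3 siADAR1 and 3 control samples was sequenced. The submitters' processing notes list CASAVA, fastp and HISAT2 2.0.5; neither counting tool nor build is given in the sources used here. The deposited counts are whole reads per gene, per the file headers and values. The deposited FPKM were made by the authors with a library factor of their own, 1.05 to 1.06 of the count total in siADAR1 and 0.966 to 0.97 in control. All 58735 gene positions equalled GENCODE release 29 (GRCh38).

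Testing used edgeR 4.0.16 under R 4.3.3: filterByExpr (minimum count 10), TMM scaling and the two-sided quasi-likelihood test of group, with Benjamini-Hochberg adjustment over 15294 genes, threshold 0.05. The SE is the log2 fold change divided by the square root of F. The test was tested on simulated data, but the outcome is not given here and no result rests on it. Alternatives changed the scaling, the low-count filter, the tool (limma 3.58.1, DESeq2 1.42.0), the unit (log2 of FPKM plus 1 or 0.1, with limma), the block and the libraries kept. The members and lists were chosen with earlier results of these data known. Text names all members, genes overlapping them, and from each list the 2 non-members with the smallest p in each direction (up to 4 among regulators); list genes at 0 and TFCP2 were named after their values were seen. A gene that this rule names is not reported here. Lists have no set test. Levels across genes are compared in FPKM alone.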

Additional observations from a re-analysis of the deposited data

How the results depend on the processing

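GRHL3, GRHL1, OVOL2, BNC1 and TP63 kept their direction and their call under all 18 alternatives, and GRHL2 was called under none. SOX2 passed with library totals alone (log2 fold change 1.03), limma-voom (1.00), protein-coding genes alone (0.94) and the replicate block (0.96), and ranged from 0.65 to 1.34 when 1 library was left out. On FPKM with a pseudocount of 1 and no filter, OVOL1 (0.78), TFAP2A (0.30) and PAX9 (-0.42) were no longer called, leaving 5 members higher and 0 lower. Leaving out 1 library gave 0.36 to 0.46 for TFAP2A, -0.78 to -0.44 for PAX9, 6 to 7 members higher and 0 to 1 lower. The cause of these losses was not tested. With no filter on low counts, OVOL1, PAX9 and TFAP2A kept their calls (edgeR adjusted p = 6.03e-11, 1.1e-03 and 0.0195). With both libraries numbered 1 left out, TFAP2A and PAX9 kept theirs (edgeR adjusted p = 7.09e-04 and 0.0208). Library totals alone raised the median of all genes from 0.00 to 0.12 and the share of calls that were higher from 50.9% to 62.9%. The replicate numbers were shared between groups, and the labels do not say whether samples of equal number were paired. Correlations of deviations were 0.251, 0.084 and 0.106 for equal numbers 1, 2 and 3. siADAR1 replicate 1 had -0.148 and -0.145 with control replicates 2 and 3. Control replicate 1 had -0.13 and -0.169 with siADAR1 replicates 2 and 3. For control replicate 2, siADAR1 replicate 3 (0.092) was closer than replicate 2 (0.084). These values do not settle whether the samples were paired. The main test used no pairing, and the replicate block called 8582 genes against 7804. Of 620 values for other named genes, 590 kept their direction and call, 29 lost the call, 1 gained it and 0 reversed. Of 540 list counts and medians, 77 moved. SOX2, FLG and TP73, whose calls changed with the setting, had at most 47, 43 and 22 reads in a library. Calls also changed for KRT17, SNX5, ATP11B and OVOL1, with at most 7633, 3032, 2395 and 1224 reads in a library. The same was true of TFAP2A, COL1A1, PAX9 and STPG1, with at most 424, 424, 357 and 193 reads.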
